A study of Mus musculus with 12 samples.

Results

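The circadian clock genes described here are Per1, Per2, Per3, Cry1, Ciart, Nr1d1, Nr1d2, Arntl, Dbp and Tef, 10 named genes out of the 33250 gene symbols in the deposited count table. They were taken by name, and all 10 had enough counts to be tested. RNA of the bulk hippocampus was sequenced from 6 mice with a conditional knockout (cKO) of the miR379-410 cluster and from 6 wild-type (WT) mice, all male. In cKO animals, Cre recombinase removed this imprinted microRNA cluster in Emx1-positive cells, which in the hippocampus include the glutamatergic neurons. Cells of the same tissue in which Cre did not act keep the cluster, so a change limited to the targeted cells is diluted in bulk RNA. Which cell types lost the cluster was not measured here, and fewer cells of a type cannot be told apart from less RNA per cell. The age of the animals, the alleles carried by WT animals and the time of day at which each brain was taken were not given in the sources used here.

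The circadian clock is a loop of transcription and repression that runs in most cells of the body, including hippocampal neurons and glia. The activators BMAL1 (encoded by Arntl) and CLOCK bind E-boxes and switch on Per, Cry, Nr1d, Dbp and Ciart genes, whose PER, CRY and CIART proteins then block the activators. The REV-ERB proteins made by Nr1d1 and Nr1d2 repress Arntl through ROR elements, and DBP and TEF activate genes with D-boxes, so that in rhythmic mouse tissues Arntl peaks in a phase opposite to Dbp and Nr1d1. Per1 is also induced by glucocorticoids and by neuronal activity.

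Clock genes are linked through motifs in their promoters, and 3 promoters are printed because each holds more than 1 copy of a different clock motif. The windows run from 250 bases before to 50 bases after an annotated start (RefSeq, GRCm38.p6), and 9 of the 10 genes had at least 1 window. Capitals mark matches to an E-box (CACGTG, its own reverse complement), a D-box (TTATGTAA or TTACGTAA) or a ROR element (AAN followed directly by TAGGTNA), each searched on both strands. Ciart lies at chr3:95882179-95882478 (minus strand), Per3 at chr4:151044616-151044915 (minus strand) and the second start of Arntl at chr7:113207261-113207560 (plus strand).
Ciart: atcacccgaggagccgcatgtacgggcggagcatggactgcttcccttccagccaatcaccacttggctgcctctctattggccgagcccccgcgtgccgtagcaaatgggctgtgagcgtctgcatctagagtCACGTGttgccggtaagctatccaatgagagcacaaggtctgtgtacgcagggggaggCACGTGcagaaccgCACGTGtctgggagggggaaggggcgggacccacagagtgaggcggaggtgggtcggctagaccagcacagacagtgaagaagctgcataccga
Per3: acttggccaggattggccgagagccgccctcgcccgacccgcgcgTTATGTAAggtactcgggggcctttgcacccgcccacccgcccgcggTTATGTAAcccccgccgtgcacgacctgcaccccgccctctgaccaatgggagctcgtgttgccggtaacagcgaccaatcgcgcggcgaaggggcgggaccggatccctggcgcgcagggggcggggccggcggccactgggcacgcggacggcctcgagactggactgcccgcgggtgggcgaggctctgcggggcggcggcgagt
Arntl: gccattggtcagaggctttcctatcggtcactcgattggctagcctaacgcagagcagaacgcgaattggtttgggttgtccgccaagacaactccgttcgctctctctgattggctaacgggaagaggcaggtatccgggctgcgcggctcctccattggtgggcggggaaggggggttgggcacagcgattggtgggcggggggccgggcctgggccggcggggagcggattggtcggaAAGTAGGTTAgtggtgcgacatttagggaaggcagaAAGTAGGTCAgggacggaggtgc
Ciart held 3 E-boxes, with first bases 116, 58 and 44 bases upstream of the start, and 0.0883% of the 32851 promoter windows held 3 or more. Per3 held 2 copies of TTATGTAA, at 205 and 158 bases upstream, against 0.0213% of all windows with 2 or more. Arntl held 2 ROR elements, at 9 bases upstream and 28 bases downstream, against 0.00913% of all windows with 2 or more. Single E-boxes stood in the windows of Per1 (166 bases upstream), Cry1 (60 bases upstream) and Tef (127 bases upstream of one start and 138 bases upstream of the other), where 7.15% of all windows held at least 1. The windows of Dbp, Nr1d1 and Nr1d2 held none of these 3 motifs. A match is a run of letters and not a bound site.

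Markers of hippocampal neurons summed far higher than those of the suprachiasmatic nucleus and of the thalamus, though thalamus markers were present. The 7 hippocampal neuron markers summed to 4658 to 5581 CPM (counts scaled to library size, with TMM factors) in cKO and 5093 to 5609 CPM in WT, and 4 of 6 markers of the suprachiasmatic nucleus, the brain's master clock, averaged under 1 CPM (Six6 0.00680, Nms 0.00710, Avp 0.0730 and Lhx1 0.330 CPM). The sum of those 6 was 14.1 to 24.0 CPM in cKO and 15.7 to 18.8 CPM in WT, mostly from Vip, which interneurons also express. Prokr2, also on that list, averaged 4.07 CPM. The 5 thalamus markers summed to 55.3 to 73.9 CPM in cKO and 60.2 to 73.5 CPM in WT, and none averaged under 1 CPM. How much tissue next to the hippocampus was taken was not measured here. Library totals ranged from 44803793 to 51095816 counts in cKO and from 42360624 to 50804084 counts in WT. Summed choroid plexus markers ranged from 82.9 to 5826 CPM in cKO and from 124 to 8648 CPM in WT, with cKO 4, WT 2 and WT 3 far below the others. The library labelled cKO 1 went against its label in B830012L14Rik, a non-coding RNA just upstream of the cluster, which was at 0.788 CPM there, at 17.4 to 25.8 CPM in cKO 2 to 6 and at 0.310 to 0.865 CPM in WT. Mirg, a host transcript within the cluster, was at 23.6 CPM in the library labelled cKO 1, below every other library, at 32.6 to 46.4 CPM in cKO 2 to 6 and at 28.4 to 34.1 CPM in WT. Emx1, the gene whose locus drives Cre, was at 9.14 CPM in that library, at 5.91 to 6.84 CPM in cKO 2 to 6 and at 8.38 to 9.60 CPM in WT. The fold changes of the clock genes are therefore also given without that library. For relations that passed between members or with other pathway genes, the text also states whether they passed without it. Every r within cKO includes it, as do the relations to sample measures and overlapping genes and the lists of most similar genes.

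Per unit of exon length, Tef was the most abundant of the 10 genes and Ciart the least. Divided by the length of the annotated exons, Tef was at 48.1 ± 1.95 CPM per kilobase in cKO and 49.1 ± 1.49 in WT (SD, n = 6 each). Nr1d1 followed at 23.3 ± 3.32 in cKO and 21.8 ± 2.84 in WT, then Per1 (16.6 ± 1.13 in cKO and 15.8 ± 1.55 in WT) and Nr1d2 (15.5 ± 0.673 in cKO and 15.7 ± 1.80 in WT). Per1 and Nr1d2 lay within 1 SD of each other. Dbp stood at 13.3 ± 1.72 CPM per kilobase in cKO and 13.3 ± 2.98 in WT, Per2 at 10.02 ± 0.706 in cKO and 10.07 ± 0.916 in WT, and Per3 at 6.64 ± 0.622 in cKO and 7.11 ± 0.436 in WT. Cry1 (4.43 ± 0.338 in cKO, 4.57 ± 0.339 in WT), Arntl (3.85 ± 0.434 in cKO, 3.93 ± 0.432 in WT) and Ciart (3.60 ± 0.516 in cKO, 3.43 ± 0.800 in WT) closed the order, and Arntl and Ciart differed by less than their spread.

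No change was detected in any of the 10 clock genes between the animals labelled cKO and WT. In the quasi-likelihood test of edgeR over all 19325 genes tested, 0 of 10 passed an adjusted p of 0.05, where 0.0103% of all genes did, and 0 of 10 had an unadjusted p under 0.05, where 9.54% of all genes did (3.20% higher and 6.34% lower in cKO). DESeq2 and limma-voom also called 0 of 10. In all 10 genes the levels in cKO animals overlapped those in WT animals, and over all genes tested 0.404% had groups that did not overlap. The log2 fold changes, cKO over WT, ran from -0.10 for Per3 to 0.09 for Nr1d1, with 4 above 0, 6 below 0 and a median of -0.02. Over all genes tested the median was 0.01 and 53.4% lay above 0. The smallest adjusted p among the members was 0.644 (edgeR). With the library labelled cKO 1 left out the smallest was 0.249 (edgeR), again for Per3. Without it the log2 fold changes were -0.15 for Per3, -0.09 for Cry1, -0.05 for Dbp, Nr1d2 and Tef, -0.01 for Per2, 0.00 for Arntl (above 0, where it was -0.03 with all 12 animals), 0.02 for Ciart, 0.06 for Per1 and 0.08 for Nr1d1, and 0 of 10 passed.

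**Figure D1:**
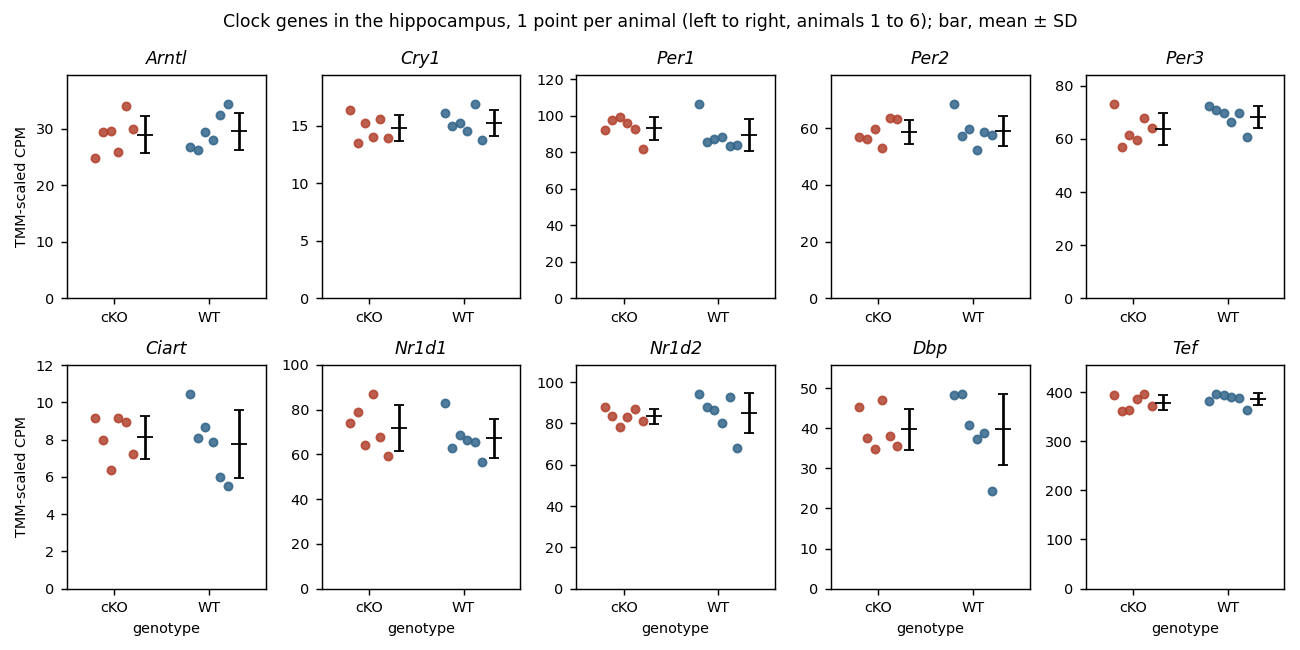
Level of each clock gene in TMM-scaled CPM (y axis, from 0) in 6 cKO and 6 WT animals (x axis), with 1 point per animal and the mean ± SD beside each group. In all 10 panels the cKO and WT points overlap, and Dbp and Ciart have the widest spread in proportion to their level.

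Arntl, the activator, was at 24.8 CPM in the lowest, 29.6 CPM in the median and 34.0 CPM in the highest cKO animal, and at 26.2, 28.7 and 34.4 CPM in WT. The library labelled cKO 1 and cKO 4 lay below every WT animal and WT 6 lay above every cKO animal, with the rest interleaved. Its log2 fold change was -0.03 ± 0.08 (SE; edgeR adjusted p = 0.944), and the 95% interval of the fold ran from 0.866 to 1.11.

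Of the repressors, Per1 had its values close together in WT apart from a single high animal. It was at 81.5 (lowest), 94.4 (median) and 99.1 CPM (highest) in cKO and at 83.3, 86.4 and 107 CPM in WT, where WT 1 held the highest value of all 12. Its log2 fold change was 0.06 ± 0.06 (SE; edgeR adjusted p = 0.806). Without WT 1 it was 0.11, with an unadjusted p of 0.0274 and an edgeR adjusted p of 0.287. Per2 was at 53.0, 58.1 and 63.5 CPM in cKO and at 52.2, 58.0 and 68.6 CPM in WT. The Per2 medians of the genotypes nearly coincided, with a log2 fold change of -0.01 ± 0.06 (SE; edgeR adjusted p = 0.981) and a 95% interval of the fold from 0.908 to 1.09.

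Per3, another Period gene, had the lowest log2 fold change of the 10. Its values were 57.0, 62.7 and 73.2 CPM in cKO and 60.9, 69.7 and 72.3 CPM in WT. The animal highest in Per3 was the library labelled cKO 1, while cKO 2 and cKO 4 lay below every WT animal. The log2 fold change was -0.10 ± 0.06 (SE; edgeR adjusted p = 0.644). It was -0.15 once the library labelled cKO 1 was left out, with an unadjusted p of 0.0147. Cry1, a cryptochrome that with PER blocks the activators, was at 13.5, 14.6 and 16.4 CPM in cKO and at 13.7, 15.1 and 16.9 CPM in WT (log2 fold change -0.05 ± 0.06, SE). Ciart, also known as CHRONO, was at 6.34, 8.46 and 9.16 CPM in cKO and at 5.53, 7.96 and 10.5 CPM in WT. The cKO animals lay inside the WT range of Ciart, and its log2 fold change of 0.07 ± 0.15 (SE) left a 95% interval of the fold from 0.841 to 1.303.

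Neither REV-ERB gene passed between the genotypes, and their spreads were not compared by a test. The SD of log2 CPM was 0.204 in cKO and 0.18 in WT for Nr1d1. For Nr1d2 it was 0.063 in cKO and 0.175 in WT, where WT 6 held the lowest value. Nr1d1 was at 59.1, 70.7 and 87.0 CPM in cKO and at 56.7, 65.9 and 82.9 CPM in WT, with a log2 fold change of 0.09 ± 0.10 (SE; edgeR adjusted p = 0.816). Nr1d2 was at 78.1, 83.5 and 87.9 CPM in cKO and at 67.9, 87.3 and 94.3 CPM in WT. All 6 cKO values of Nr1d2 lay between the lowest and the highest WT value (log2 fold change -0.02 ± 0.07, SE). Nr1d1 shares 8.5% of its exon bases with Thra on the opposite strand, a thyroid hormone receptor gene at 800 CPM, and the strand setting of the counts was not given in the sources used here. Across the 12 animals Nr1d1 and Thra were not related (Pearson r = 0.053, permutation p = 0.872; Spearman rho = 0.035, p = 0.921; adjusted p over the 2 overlapping pairs 0.872 and 0.921; r = 0.025 without the 2 animals farthest from the median of Nr1d1).

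Dbp and Tef, the output factors, stood at opposite ends in spread. Dbp was at 34.9, 37.8 and 47.1 CPM in cKO and at 24.3, 39.9 and 48.6 CPM in WT, with WT 6 well below the other 11 animals. The means were 39.8 ± 5.15 CPM in cKO and 39.7 ± 8.92 CPM in WT (SD, n = 6 each). The 95% interval of the fold ran from 0.812 to 1.24 around a log2 fold change of 0.00 ± 0.14 (SE). Tef was at 361, 379 and 396 CPM in cKO and at 364, 389 and 396 CPM in WT, and its interval of 0.934 to 1.03 was the narrowest of the 10. Dbp shares 18.0% of its exon bases with Sphk2, a sphingosine kinase gene on the opposite strand at 35.7 CPM. Sphk2 was lower where Dbp was higher (Pearson r = -0.73, permutation p = 0.00644, adjusted p over the 2 overlapping pairs = 0.0129; Spearman rho = -0.643, p = 0.0277, adjusted p = 0.0554), and without WT 2 and WT 6, the animals farthest from the median of Dbp, r was -0.388, so the relation rests on those animals.

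**Figure D2:**
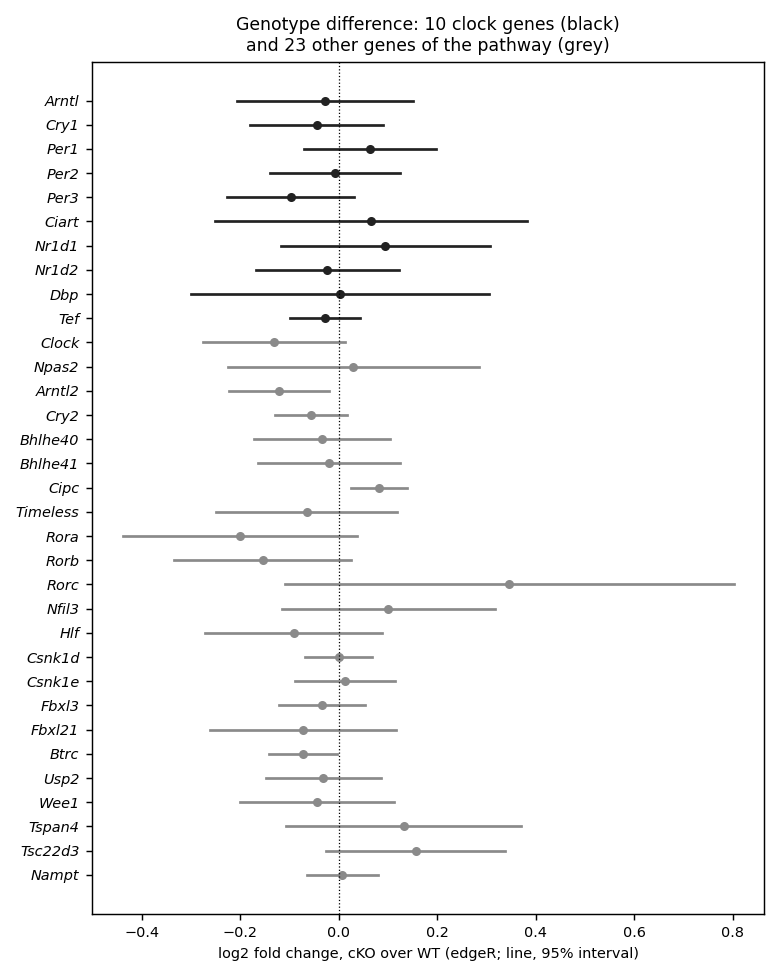
Log2 fold change of cKO over WT from edgeR (x axis, points) with its 95% interval (lines) for the 10 clock genes in black and 23 other genes of the pathway in grey (y axis). All 10 black intervals cross 0, and of the grey ones those of Cipc, Arntl2 and Btrc do not, though none of the 33 genes passed an adjusted p of 0.05.

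The other genes of the pathway, a list of 23 that also holds kinases, ubiquitin ligases and outputs of the clock, did not pass either. In edgeR 0 of 23 passed an adjusted p of 0.05 and 3 had an unadjusted p under 0.05, where 9.54% of all genes tested did. Of the 23, 8 lay above 0 and 15 below 0, with a median log2 fold change of -0.03, where 53.4% of all genes lay above 0. The smallest p belonged to Cipc, a CLOCK-interacting repressor, at 88.0 ± 1.90 CPM in cKO and 83.1 ± 2.41 CPM in WT (SD, n = 6 each; log2 fold change 0.08 ± 0.03, edgeR adjusted p = 0.365). Arntl2, a paralog of Arntl, was at 12.2 ± 0.641 CPM in cKO and 13.3 ± 0.547 CPM in WT (log2 fold change -0.12 ± 0.05, edgeR adjusted p = 0.451). Btrc, which encodes a ubiquitin ligase subunit acting on PER proteins, was at 69.6 ± 2.68 CPM in cKO and 73.1 ± 2.26 CPM in WT (log2 fold change -0.07 ± 0.03, edgeR adjusted p = 0.4998). Clock itself, the partner of Arntl, had a log2 fold change of -0.13 ± 0.07 (SE), Rorb, a ROR-family receptor, of -0.15 ± 0.08, and Tsc22d3, a glucocorticoid-induced gene, of 0.16 ± 0.08. For these 6 genes as for the members, the genotypes overlapped.

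For each of the 10 genes the SD between animals of a genotype was larger than the log2 difference between the genotypes. The SD of log2 CPM between animals of a genotype was 0.289 for Dbp, 0.285 for Ciart and 0.193 for Nr1d1, against 0.052 for Tef. Among the 500 genes nearest in level, 97.2% had a smaller SD than Dbp, 95.4% a smaller SD than Nr1d1, and 89.8% a smaller SD than Nr1d2. Ciart stood above 88.8%, Arntl above 86.6%, Per1 above 85%, Per2 above 81.0% and Per3 above 79.4% of their neighbours in level. Cry1 was near the middle at 58.6%, and Tef was steadier than most at 15%. Counting error alone gives an SD of 0.0539 for Cry1, where the measured SD was 0.108, so that counting weighs most in this gene. It gives 0.0332 for Dbp, 0.0743 for Ciart and 0.0107 for Tef, and it was below the measured SD in all 10 genes. Between the highest and the lowest animal Dbp differed 2.00-fold (WT 2 over WT 6), Ciart 1.89-fold (WT 1 over WT 6) and Nr1d1 1.53-fold (cKO 4 over WT 6).

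**Figure D3:**
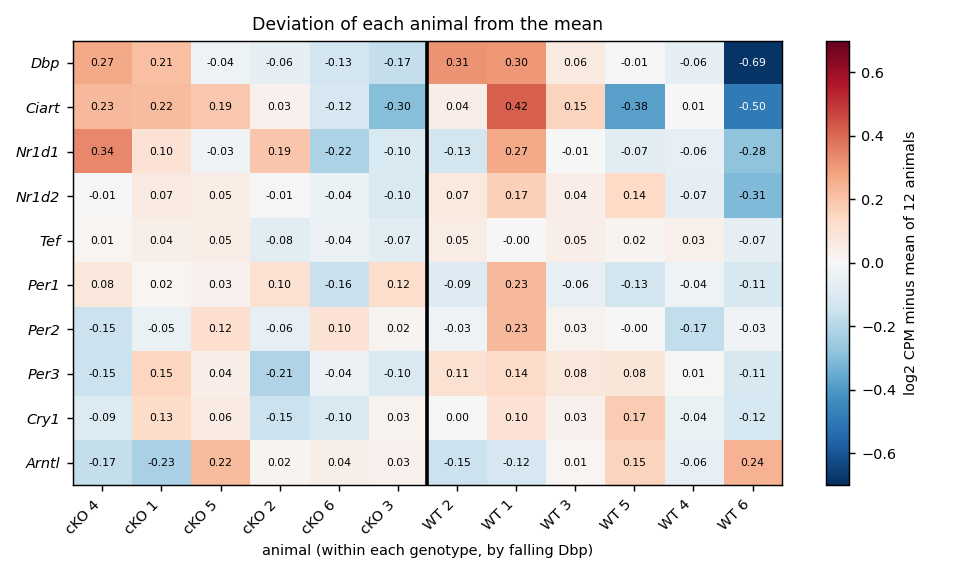
Deviation of log2 CPM in each animal from the mean of the 12 (colour and number in each cell), with genes in rows and animals in columns, cKO to the left and WT to the right, each ordered by falling Dbp. Arntl runs against Dbp: the 4 animals highest in Dbp, cKO 4, cKO 1, WT 2 and WT 1, are the 4 lowest in Arntl, and WT 6 is lowest in Dbp and highest in Arntl.

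Across the 12 animals, those high in Dbp were low in Arntl, and r was below 0 in each genotype. The 4 animals with the most Dbp were cKO 4 (47.1 CPM) and the library labelled cKO 1 (45.3 CPM) with WT 2 (48.6 CPM) and WT 1 (48.3 CPM), and the same 4 had the least Arntl, at 25.9, 24.8, 26.2 and 26.8 CPM in that order. WT 6 had the least Dbp (24.3 CPM) and the most Arntl (34.4 CPM). The ratio of Dbp to Arntl in CPM was 1.83 in the library labelled cKO 1 and ran from 1.12 in cKO 5 to 1.82 in cKO 4 among cKO 2 to 6, and from 0.706 in WT 6 to 1.86 in WT 2 among WT animals. Pearson r was -0.776 over the 12 animals (permutation p = 0.00145, adjusted p = 0.0258 over the 45 pairs of members) and Spearman rho was -0.727 (p = 0.00973, adjusted p = 0.073). Within the genotypes r was -0.75 in cKO (exact permutation p = 0.0931) and -0.862 in WT (exact permutation p = 0.0125). The cKO value had a p above 0.05, includes the library labelled cKO 1 and was not computed without it. Without WT 2 and WT 6, the animals farthest from the median of Dbp, r was -0.675, with an adjusted p of 0.171. The adjusted p was also above 0.05 without the library labelled cKO 1 (0.054), WT 1 (0.0512) or WT 6 (0.154), and with 9 animals left after removal of cKO 4, WT 2 and WT 3 (r = -0.71, adjusted p = 0.13). In each of these cases r stayed at or below -0.675.

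Dbp varied across animals together with Nr1d2 and Ciart. Of the other members besides Arntl, Nr1d1 had an r of 0.665 with Dbp, Tef 0.62, Per3 0.503, Cry1 0.433, Per1 0.382 and Per2 0.065. None of these passed (permutation p adjusted over 45 pairs from 0.0758 to 0.892). For Nr1d2, r was 0.842 (permutation p = 0.00254, adjusted p = 0.0286 over 45 pairs) and rho 0.811 (adjusted p = 0.0325), with 0.584 in cKO and 0.902 in WT. For Ciart, r was 0.792 (permutation p = 0.00114, adjusted p = 0.0258) and rho 0.769 (adjusted p = 0.0502), with 0.824 in cKO and 0.791 in WT. Without WT 2 and WT 6, the animals farthest from the median of Dbp, r was 0.605 for Nr1d2 and 0.765 for Ciart. Both adjusted p-values were above 0.05 without WT 6 (0.268 and 0.154), WT 1 (0.0689 and 0.0512) or the library labelled cKO 1 (0.054 for both). Nr1d1 was related to Ciart (r = 0.744, permutation p = 0.00589, adjusted p = 0.0379; rho = 0.811, adjusted p = 0.0325), with 0.66 in cKO and 0.843 in WT, and r was 0.637 without cKO 4 and WT 1, the animals farthest from the median of Nr1d1. Nr1d1 was also related to Per1 (r = 0.753, permutation p = 0.00464, adjusted p = 0.0379; rho = 0.692, adjusted p = 0.0779), with 0.574 in cKO, 0.898 in WT and 0.618 without cKO 6 and WT 1, the animals farthest from the median of Per1. The Ciart pair was lost without any of the library labelled cKO 1, cKO 4, cKO 6, WT 1, WT 3, WT 4 and WT 6 (adjusted p from 0.054 to 0.156), and the Per1 pair without any of the library labelled cKO 1, cKO 2, cKO 6, WT 1, WT 2, WT 3, WT 4 and WT 6 (0.0534 to 0.154).

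**Figure D4:**
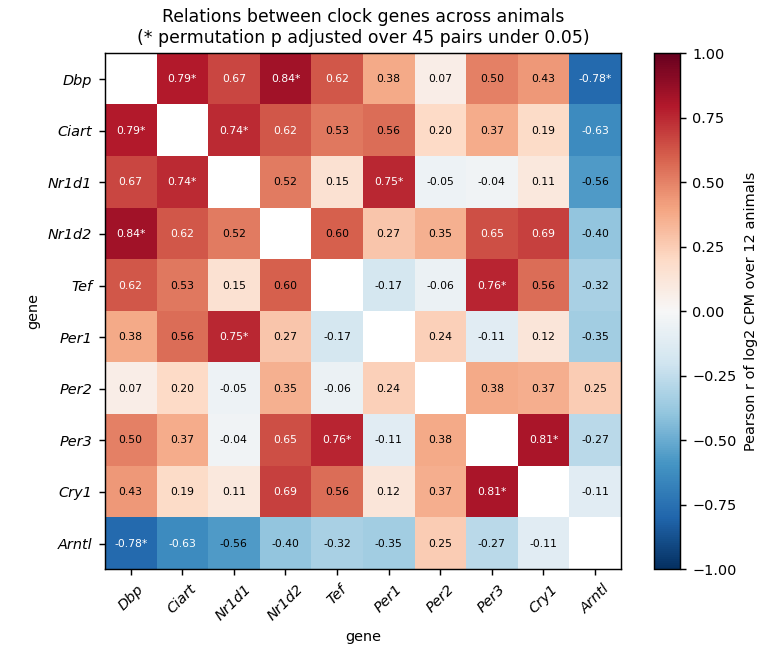
Pearson r of log2 CPM over 12 animals for each pair of clock genes (colour and number), with an asterisk where the permutation p adjusted over 45 pairs is under 0.05. Of the 45 pairs 32 are above 0 and 13 below 0, the row of Arntl is negative against 8 of 9 genes, and 7 pairs carry an asterisk.

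Per3 was related to Cry1 and to Tef, while Cry1 and Tef did not pass with each other (r = 0.56, permutation p = 0.0615, adjusted p = 0.163; rho = 0.517, adjusted p = 0.235; r = 0.558 without cKO 2 and cKO 3). Per3 and Cry1 had an r of 0.814 (permutation p = 0.00172, adjusted p = 0.0258 over 45 pairs) and a rho of 0.825 (adjusted p = 0.0325), with 0.858 in cKO (exact permutation p = 0.0333) and 0.784 in WT (exact permutation p = 0.0625). Per3 and Tef had an r of 0.761 (permutation p = 0.00562, adjusted p = 0.0379) and a rho of 0.657 (adjusted p = 0.107), with 0.741 in cKO and 0.736 in WT. Without cKO 2 and cKO 4, the animals farthest from the median of Per3, r was 0.719 for Cry1 and 0.819 for Tef. The Cry1 pair was lost without the library labelled cKO 1 (adjusted p = 0.0647), cKO 2 (0.0534), WT 1 (0.0512) or WT 6 (0.154). The Tef pair was lost without any of the library labelled cKO 1, cKO 2, cKO 6 and WT 1 to WT 6 (adjusted p from 0.0512 to 0.154). Per3 also varied with genes of the Dbp group in WT, with an r of 0.974 for Nr1d2 (exact permutation p = 0.00694) and 0.967 for Dbp (exact permutation p = 0.00556). In cKO these were 0.61 (exact permutation p = 0.196) and 0.257 (exact permutation p = 0.611), and neither passed over the 12 animals (for Nr1d2 r = 0.647, permutation p = 0.0168, adjusted p = 0.0758, rho = 0.762, adjusted p = 0.0502; for Dbp r = 0.503, permutation p = 0.0893, adjusted p = 0.201, rho = 0.601, adjusted p = 0.168). Without cKO 2 and cKO 4 r was 0.876 for Nr1d2 and 0.875 for Dbp. The difference between the genotypes in these relations was not tested, and the exact permutation p-values within a genotype are not adjusted. Per3 and Per1 were not related past the threshold (r = -0.111, adjusted p = 0.812; rho = -0.105, adjusted p = 0.902; r = -0.541 without cKO 6 and WT 1).

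Per2 was not related to any other member past the threshold. Its r with Dbp was 0.065 (adjusted p = 0.892; rho = -0.007, adjusted p = 0.991; r = -0.294 without WT 1 and WT 4, the animals farthest from the median of Per2). With Arntl r was 0.253 (adjusted p = 0.606; rho = 0.427, adjusted p = 0.379; r = 0.568 without WT 1 and WT 4). With Nr1d1 r was -0.053 (adjusted p = 0.892; rho = -0.154, adjusted p = 0.796; r = -0.633 without WT 1 and WT 4). Within the genotypes that r was -0.896 in cKO (exact permutation p = 0.0181) and 0.716 in WT (exact permutation p = 0.103). The difference was not tested, and the cKO value includes the library labelled cKO 1. This is 1 of 45 pairs, and the exact p-values are not adjusted. Of the 45 pairs, 7 passed with all 12 animals, and 0 passed without the library labelled cKO 1, without WT 1 or without WT 6. The count was 4 without cKO 6, WT 3 or WT 4, and 6 to 9 without any other single animal. With genotype means removed 8 pairs passed.

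**Figure D5:**
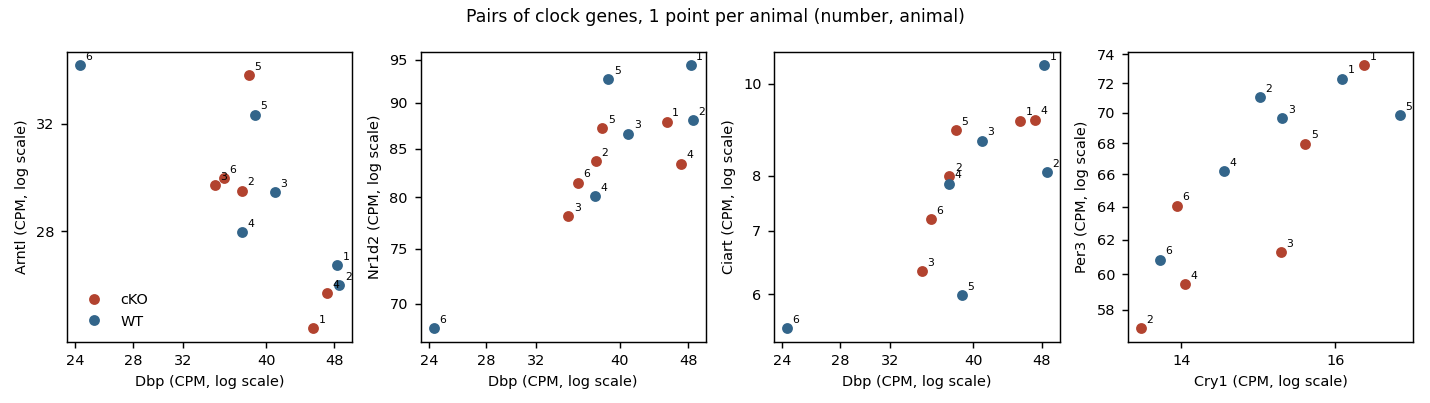
Arntl, Nr1d2 and Ciart against Dbp and Per3 against Cry1, all in TMM-scaled CPM on log axes, with 1 numbered point per animal (red, cKO; blue, WT). In the panel of Arntl the points fall from upper left to lower right, with WT 6 at 24.3 CPM of Dbp at one end, and in the other 3 panels they climb.

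Among the 23 other pathway genes, Bhlhe41, which encodes the repressor DEC2, followed Dbp most closely. Bhlhe41 and Dbp had an r of 0.871 (permutation p = 0.00049, adjusted p = 0.0147 over 46 relations of these genes with Dbp or Arntl) and a rho of 0.755 (adjusted p = 0.154), with 0.935 in cKO and 0.862 in WT. Timeless, the homologue of a fly clock gene, followed Arntl with an r of 0.817 (adjusted p = 0.0147) and a rho of 0.79 (adjusted p = 0.154), with 0.806 in cKO and 0.879 in WT. Without WT 2 and WT 6, the animals farthest from the median of Dbp, the first r was 0.778, and without the library labelled cKO 1 and WT 6, farthest from that of Arntl, the second was 0.729. Without WT 6 alone both lost the threshold (adjusted p = 0.152 for each). Without the library labelled cKO 1 alone both passed (r = 0.863 and 0.794, permutation p adjusted over 46 relations = 0.0368 for each). Tspan4, a tetraspanin gene, ran against Arntl with an r of -0.779 (permutation p = 0.00327, adjusted p = 0.0501), a rho of -0.713 (adjusted p = 0.189) and an r of -0.734 without the library labelled cKO 1 and WT 6. Leaving out the library labelled cKO 1 alone gave an r of -0.801 (permutation p adjusted over 46 relations = 0.0503).

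The members were set beside 6 measures of the samples, and 0 of the 60 relations passed after adjustment. The closest was Ciart with the share of mitochondrially encoded counts (r = 0.834, permutation p = 0.00088, adjusted p = 0.0528; rho = 0.776, adjusted p = 0.174), with 0.518 in cKO, 0.962 in WT and 0.795 without the 2 animals farthest in that share. Nr1d1 (r = 0.728, permutation p = 0.00756, adjusted p = 0.151; rho = 0.734, adjusted p = 0.174; r = 0.769 without the 2 farthest) and Per1 (r = 0.727, permutation p = 0.00734, adjusted p = 0.151; rho = 0.755, adjusted p = 0.174; r = 0.702 without the 2 farthest) came next with the same share, also short of the threshold. The share lay between 7.27% and 8.01% in cKO and between 6.86% and 7.97% in WT. The part of this share in the relations of Ciart, Nr1d1 and Per1 was not tested. Per1 had an r of 0.393 (permutation p = 0.203, adjusted p = 0.592; rho = 0.427, adjusted p = 0.477) with the mean of 12 glucocorticoid-responsive genes, 0.098 without the 2 animals farthest in that mean, and 0.435 (permutation p = 0.160, adjusted p = 0.579; rho = 0.245, adjusted p = 0.788) with the mean of 12 immediate early genes, 0.008 without the 2 farthest. Of the 12 glucocorticoid-responsive genes 10 were higher in cKO. In edgeR 6 had an unadjusted p under 0.05, all higher in cKO, where 3.20% of all genes did, and 0 passed an adjusted p of 0.05. Within the genotypes the r of Per1 with their mean was 0.258 in cKO and 0.347 in WT. Smooth muscle and pericyte markers summed to 89.7 to 140 CPM in cKO and 49.9 to 86.6 CPM in WT and did not overlap. This list, like the others, was chosen with earlier results of these data known, so its separation is no yardstick for the clock genes.

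Over the 12162 genes with a mean of at least 5 CPM, the pattern of Dbp across the 12 animals was most like that of Haus2, a subunit of the augmin complex of the spindle (r = 0.911). Next came Gas5, a non-coding host of small nucleolar RNAs (0.883), Bhlhe41 (0.871), the proteasome subunit gene Psmb7 (0.863) and the potassium channel gene Kcnh3 (0.859). Pik3r2 (0.844), Nr1d2 (0.842), Garem2 (0.841) and Hmgb1 (0.84), a chromatin protein gene with many near-identical copies, were also among the 10 highest, and Ciart was at place 19. The 5 genes most opposed to Dbp were Gpr17, a receptor of oligodendrocyte precursors (-0.877), Gtf3c4 (-0.869), Setd7 (-0.859), Ccdc171 (-0.85) and Tmem33 (-0.829), and Arntl was the 17th from that end. Most like Arntl were Zbtb16, a zinc finger transcription factor gene (0.887), the histone chaperone gene Nasp (0.866), Rbm28 (0.866), Taf15 (0.845) and a predicted gene. Zbtb16 is also on the list of glucocorticoid-responsive genes. Most like Per1 were Nphp4 (0.907), Adhfe1 (0.902), Plbd2 (0.854), the actin gene Actb (0.842) and a ribosomal protein pseudogene (0.836), and Nr1d1 was at place 30. These are descriptions of likeness over the same 12 libraries, with no test.

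The number of seed matches to the removed microRNAs differed widely between the clock genes. The reference lists 71 mature miRNAs of the cluster, and matches to bases 2 to 8 were counted in the longest annotated 3′ UTR of each gene. The members had a median of 3.60 matches per kilobase, against 3.97 over 15274 genes. Arntl had the densest at 7.89 per kilobase, above 93.1% of genes, from 4 matches in 507 bases. Ciart followed at 7.66 (above 92.5% of genes), from 2 matches in 261 bases. Such densities in short 3′ UTRs rest on few matches. Next came Per2 at 5.82 (11 matches, above 81.1% of genes) and Nr1d2 at 4.56 (12 matches). Per1 had 3 matches (3.74 per kilobase), Tef 11 (3.46), Cry1 2 (3.27) and Per3 6 (2.7), each below the median density over genes. Dbp and Nr1d1 had 0 in short 3′ UTRs of 323 and 288 bases. The 4 miRNAs matching Arntl are shown with their seeds in capitals (RefSeq, GRCm38.p6), since this gene had the highest density.
mmu-miR-380-3p: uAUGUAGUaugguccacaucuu
mmu-miR-376a-5p: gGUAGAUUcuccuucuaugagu
mmu-miR-300-3p: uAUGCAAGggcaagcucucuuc
mmu-miR-494-3p: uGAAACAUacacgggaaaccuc
Their matches in Arntl are in capitals within up to 30 bases of its 3′ UTR, which is read from chromosome 7.
Arntl 3′ UTR, mmu-miR-380-3p match: acACTACATttgctttggcaacagctgcag
Arntl 3′ UTR, mmu-miR-376a-5p match: tgatacaagtcAATCTACcatgtgtaactt
Arntl 3′ UTR, mmu-miR-300-3p match: gctgtggatagCTTGCATtaattgtatatt
Arntl 3′ UTR, mmu-miR-494-3p match: atttttaataaATGTTTCccttgttctata
No 2 of these 4 miRNAs share a seed. Matches to miR-376a-5p occur in the 3′ UTR of 6.27% of genes, to miR-380-3p in 9.11%, to miR-300-3p in 10.5% and to miR-494-3p in 15.1%. Whether the fold changes of the members go with their match densities was not tested.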

How the data were processed

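Per the labels, polyA RNA came from bulk hippocampus by Trizol-chloroform, and a NEB Next Ultra kit gave the libraries. Salmon 1.3.0 and build GRCm38 are named, per the submitters' processing notes. The transcript annotation and strand setting were not given in the sources used here. The authors deposited estimated counts (expected counts) per gene symbol, not scaled between libraries; 24.8% to 25.9% of values per library were not whole, and they were rounded. All 12 value columns were used.

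Genotypes were compared over all genes with edgeR 4.0.16 (R 4.3.3): TMM scaling, filterByExpr (minimum count 10, total 15), quasi-likelihood test on genotype alone, Benjamini-Hochberg adjustment, threshold 0.05. Levels are TMM-scaled CPM; log2 CPM has a prior count of 2. Relations between genes used Pearson and Spearman coefficients with two-sided permutation tests. Those over 12 animals used 100000 permutations, adjusted within each family of 45, 46, 60 or 2 relations. Those within 6 used all orders and were not adjusted. Exon lengths and 3′ UTRs come from GENCODE M21 (GRCm38), in which 32940 of 33250 symbols were found; promoters and miRNAs come from RefSeq. Of these steps, only the edgeR genotype test was tried on simulated counts.

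The members and lists were chosen with earlier results of these data known, and the relations of the 23 other clock genes and of the antisense pairs, the motifs and the seed counts were added after the data were seen. Named genes were the members, the 6 other clock genes with the smallest edgeR p, and the genes most like Dbp (10 highest, 5 lowest), Arntl and Per1 (5 highest each). One gene that this rule names is not reported here. Bhlhe41, Timeless, Tspan4, Sphk2, Thra, B830012L14Rik and Mirg were named besides these, with their values known. Alternatives were RLE, upper-quartile and library-total scaling, other low-count filters, DESeq2 1.42.0, limma-voom (limma 3.58.1), animal number as a block, a choroid plexus covariate, a prior count of 0.5, and animals left out. Each p-value reflects the spread between samples that the labels call separate animals.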

Additional observations from a re-analysis of the deposited data

Results flagged for a closer look

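Each clock gene was checked in the 6 cKO and the 6 WT animals for a value set far from its group, 20 groups in all, of which chance would mark about 1. Per1 was marked, and it was so in WT 1, at 106.6 CPM, where the other WT animals lay between 83.3 and 88.6 CPM. The same animal held the highest Per2 (68.6 CPM), Nr1d2 (94.3 CPM) and Ciart (10.5 CPM) of all 12. It also had the largest choroid plexus sum (8648 CPM) and a mitochondrial share of 7.97%. The part of these in its Per1 level was not tested.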

How the results depend on the processing

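None of the 10 clock genes passed an adjusted p of 0.05 in any of 220 refits (22 alternatives for each gene), and 3 of these refits had an unadjusted p under 0.05. Per1, Per3, Cry1, Nr1d1 and Tef kept their sign in all 22. The sign of Dbp held in 16, of Per2 in 18, of Arntl in 19, of Nr1d2 in 20 and of Ciart in 21. Over all genes edgeR called 2. The count was 1 with no low-count filter, 1 with at least 1 CPM in 6 animals, 1 with the choroid plexus covariate and 0 without the 3 libraries lowest in choroid plexus markers. DESeq2 called 83 and limma-voom 0 (1847 genes at an unadjusted p under 0.05). Leaving out 1 animal gave 0 to 6 genes, the 6 without the library labelled cKO 1. With animal number as a replicate block edgeR called 0 genes, 0 of them members. The numbers are not shown to pair the animals: same-numbered animals deviated together (r over 0.1) in 2 of 6 pairs, and 1 of 6 cKO animals correlated best with its own number.

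The r of Dbp and Arntl ran from -0.855 to -0.713 with 1 animal left out. It was -0.71 without the 3 libraries lowest in choroid plexus markers and -0.675 without the 2 animals farthest from the median of Dbp, and in both cases 0 of 45 pairs passed. With 1 animal left out 0 to 9 pairs passed. These settings leave fewer animals, with 9 and 10 in place of 12; no other cause was tested. Scaling and prior count changed no call on this pair, and 7 or 8 pairs passed. The lowest count behind a member was 271, for Ciart, and counting error limits Cry1 most (SD 0.0539 of a measured 0.108).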
